A study of Mus musculus with 21 samples.

Results

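The genes described here encode the proteins of the cytosolic ribosome. They are the protein-coding genes of the count table whose GENCODE M21 symbol starts with Rpl or Rps and a number, or is Rplp0, Rplp1, Rplp2 or Rpsa, with the S6 kinases left out. The rule took 92 of the 49315 genes in the table, called members below: 43 genes of the large (60S) subunit, 3 genes of the 60S stalk, 31 genes of the small (40S) subunit, 8 paralogs, 6 protein-coding entries with a "-ps" symbol and Rps19bp1, which binds a ribosomal protein but is not one. The 77 subunit and stalk genes are called canonical below. Fau and Rack1 also encode ribosomal proteins but lie outside the symbol rule, and are described with the other translation genes.

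Each ribosome needs one copy of nearly every ribosomal protein, so cells make these proteins in matched amounts. Most of their mRNAs start with a run of pyrimidines called a terminal oligopyrimidine (TOP) tract, through which Larp1 and mTOR signalling set how well they are translated. Free ribosomal proteins that are not built into ribosomes are degraded, and Rpl5 and Rpl11 can bind Mdm2 and stabilise p53. AP-2α (Tfap2a) and AP-2β (Tfap2b) are transcription factors of the epidermis and hair follicle, where basal keratinocytes divide and need a steady supply of ribosomes.

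The study sequenced total RNA of mouse epidermal sheets after depletion of ribosomal RNA. The 21 samples form 7 groups of 3 at 3 weeks or 6 months of age. Of the count files, 13 held 0 for every gene, all from 3 weeks of age, and 8 held 11318181 to 17746284 counts each. The comparison is therefore between 3 libraries labelled K14CreTfap2afl/flTfap2bfl/fl at 6 months, with floxed alleles of both AP-2 genes and Cre driven by the keratin 14 promoter of basal keratinocytes, and 3 wild-type strain-specific control libraries of that age. The other libraries with counts are 2 labelled K14CreTfap2bfl/fl at 3 weeks, for which no control of the same age was analysed here. The labels do not say whether the wild-type mice carried Cre or floxed alleles, and melanocytes, T cells and Langerhans cells in such sheets do not express keratin 14. They also do not say that replicates were separate animals, so a p-value measures the spread between these libraries only.

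The labels and libraries were checked first. Tfap2a was measured at 165, 140.3 and 210.1 counts per 1000000 counts of the library (CPM) in control replicates 1 to 3 and at 229, 213 and 309 CPM under the double-knockout label, a log2 fold change of 0.47 (SE 0.19, adjusted p = 0.118). Tfap2b was measured at 57.3, 86.6 and 71.03 CPM and 53.8, 57.2 and 56.9 CPM, a log2 fold change of -0.43 (SE 0.17, adjusted p = 0.111). Both genes kept counts in every library and neither passed the test, Tfap2a being higher and Tfap2b lower by the estimate. The labels do not say which exons are floxed, so counts over the whole gene need not show a deletion. The 3 libraries are therefore called "labelled double knockout" throughout, and every direction below is relative to that label. Control replicates 1 and 2 had counts on 35794 and 39362 genes, against 23454 to 25537 in the other 6 libraries. Most olfactory and vomeronasal receptor genes are not expected to be expressed in epidermis. Over 1420 of them, control replicates 1 and 2 held 1.61 and 3.19 counts per kb of exon against 0.0969 to 0.195 in the other 6. Scaled to the length of the ribosomal protein genes, that density came to 0.282% or less of their summed counts in every library, and to more for scarce members. Summed CPM of 7 basal keratinocyte markers was 8224 to 10485 in controls and 15753 to 18754 under the double-knockout label, with 5 of the 7 called higher. Of all genes tested, 6.26% were called higher and 8.59% lower. Trp63 and Krt15 were not called. Krt15 went the other way, with 728, 1164 and 1187 CPM in controls and 234, 673 and 330 CPM under the double-knockout label. Its log2 fold change was -1.39 (SE 0.39, adjusted p = 0.0513). The 8 markers of hair follicle (2 of 7 tested called lower) summed to 51.0 to 85.6 CPM against 16.9 to 22.4 CPM. The 4 of sebaceous gland (1 of 3 tested lower) summed to 726 to 865 CPM against 181 to 228 CPM, nearly all of it Scd1, while Mgst1, Cidea and Plin5 overlapped between the groups. Those of dermal fibroblasts (3 of 6 lower) summed to 52.98 to 157 CPM against 11.7 to 23.0 CPM. Among markers of suprabasal keratinocytes 1 of 4 was called higher, and among those of skeletal muscle 1 of 2 tested was called lower. Granular keratinocytes, T cells, Langerhans cells, melanocytes, adipocytes, endothelium and red blood cells had 0 markers called. No marker was at 0 in all 6 libraries, and the part of these cell types in the values below was not tested. The first library labelled K14CreTfap2bfl/fl held 1128 CPM of the dermal fibroblast marker Col1a1 and 227 CPM of the adipocyte marker Adipoq. The second held 7.67 and 0.0799 CPM, and no library of 6 months held more than 64.9 and 0.830 CPM.

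Some sequences of the ribosomal protein genes are shown because they bear on how the mRNAs are recognised and how their reads are counted. The first 20 bases of the principal GENCODE M21 transcript are given 5′ to 3′ on GRCm38, with the pyrimidine tract in capitals.
Rps24, chr14:24490718-24490737, plus strand: CTCTTTTCCTCCTCTCCagc
Rps2, chr17:24720110-24720129, plus strand: CTTCTTCTTCTTCgggagaa
Rpl32, chr6:115808728-115808747, minus strand: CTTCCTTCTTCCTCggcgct
Rpl4, chr9:64173375-64173394, plus strand: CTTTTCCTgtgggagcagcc
Rpl29, chr9:106429539-106429558, plus strand: tCTTCCggtctccggcgctg
The tract ran to 17 bases in Rps24 and to 5 in Rpl29, the gene with the largest difference below. A tract was counted when a C within the first 3 bases opened an unbroken run of at least 5 pyrimidines. By that definition 14 of the 77 canonical genes (18.2%) held one at the annotated start, beside 1290 of 21668 protein-coding genes (5.95%). Annotated starts are not mapped caps, so a gene without a match here may still make a TOP mRNA.

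The AP-2 consensus GCCNNNGGC, which reads the same on both strands, was searched in the RefSeq windows from 250 bases before to 50 bases after each gene's start (GRCm38.p6). Of the 57 canonical genes with a window, 9 held it (15.8%), beside 18.5% of all 27025 genes with one. A match of these letters is a description of the window and not a binding site. Rpl29 is not among the 57.

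Processed pseudogenes copy many ribosomal protein mRNAs, and reads that match both places can be lost or misassigned. Of the 77 canonical genes, 73 shared at least 1 window of 100 bases with a transcript of another gene, the median share was 27.96% of a gene's windows, and for 20 genes it was over 50%. Rpl29 shared 23.5% of its windows with 27 other genes. Its first 90 coding bases are shown beside those of the pseudogene Rpl29-ps2, from GENCODE M21 transcripts, with the start codon in capitals.
Rpl29: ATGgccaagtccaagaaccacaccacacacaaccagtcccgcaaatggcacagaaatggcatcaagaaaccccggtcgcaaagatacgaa
Rpl29-ps2: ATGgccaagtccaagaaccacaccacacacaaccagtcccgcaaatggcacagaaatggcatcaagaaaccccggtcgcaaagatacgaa
The 2 stretches have 0 mismatches, and the longest identical run of the pair is 156 of the 483 coding bases of Rpl29. Rpl29-ps2 had a count of 0 in all 8 libraries. How reads with several matches were counted is not given in the sources used here. Across the 77 genes, the share of windows in common with other genes had a rank correlation of 0.16 with the level per length and -0.07 with the log2 fold change. These are correlations across genes of the same libraries and are given as descriptions.

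All 77 canonical genes had counts in all 8 libraries, the lowest being 118 counts in 1 library. Levels are compared between genes as CPM per kb of summed exon length. Rps26, a 40S protein, had the highest mean over the 6-month libraries, 454 CPM per kb, and Rpl36a the lowest, 12.3 CPM per kb, a ratio of 36.8 around a median of 119 CPM per kb. Summed exon length includes exons that epidermis may not use, so this range holds annotation as well as RNA level.

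Rps26 stood at 413, 459.8 and 424 CPM per kb in the controls and at 364, 551 and 514 CPM per kb under the double-knockout label. Rplp0, the base of the stalk, stood at 422, 323 and 450.4 CPM per kb and 433, 543 and 495 CPM per kb. Rps12, a 40S protein, stood at 370.4, 449.6 and 350.2 CPM per kb and 438, 504 and 536 CPM per kb. The 3 genes overlapped one another within each group, so their order among themselves is not resolved. At the low end, Rpl36a was at 6.62, 13.99 and 10.3 CPM per kb in controls and 13.3, 16.6 and 13.2 CPM per kb under the double-knockout label. Rpl18, another 60S protein, was at 10.4, 17.7 and 15.6 CPM per kb and 15.3, 18.4 and 18.6 CPM per kb. Rps15a was at 17.8, 22.5 and 20.8 CPM per kb and 18.6, 22.6 and 25.2 CPM per kb. Rpl36a and Rpl18 overlapped within each group, while Rps15a lay just above Rpl18 in both. The order of the 77 levels had a rank correlation of 0.97 between the group means of controls and libraries labelled double knockout, and of 0.97 between controls and the 2 Tfap2b libraries.

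Summed over all 92 genes, ribosomal protein mRNA took 1.52, 1.65 and 1.58% of all counts in the controls, a mean of 1.58% ± 0.0658 (SD, n = 3). In the libraries labelled double knockout it took 1.58, 1.93 and 1.87%, a mean of 1.80% ± 0.186 (SD, n = 3). Replicates 2 and 3 of the latter lay above every control, and replicate 1 lay inside the control range. In bulk RNA, fewer or more cells of a type and less or more RNA per cell cannot be told apart. The ratio of the means was 1.13.

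Among the canonical genes, the 40S genes took 0.583, 0.670 and 0.589% of counts in controls and 0.602, 0.732 and 0.727% under the double-knockout label. The 60S genes with the stalk took 0.930, 0.972 and 0.980% and 0.971, 1.19 and 1.14%. Both sums overlapped between the groups. The ratio of 40S to 60S counts was 0.639 ± 0.0453 (SD, n = 3) in controls and 0.625 ± 0.0123 (SD, n = 3) under the double-knockout label, a difference smaller than the spread between controls. Among 274 ribosomal protein pseudogenes with a "-ps" symbol, the counts came to 0.0169% of the control libraries and 0.0154% of the libraries labelled double knockout on average.

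**Figure D1:**
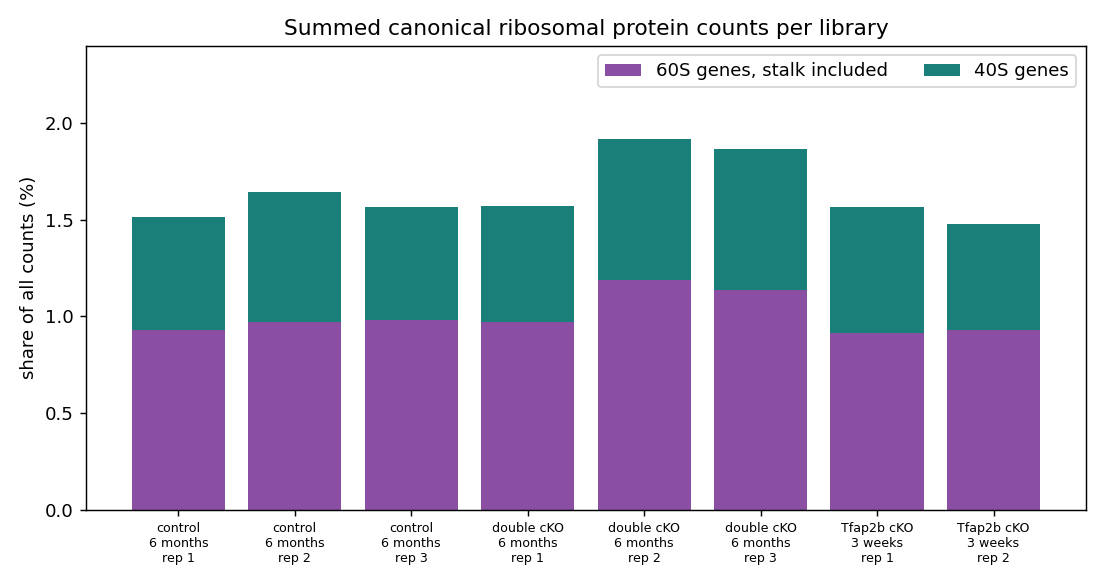
Stacked bars of the share of all counts, in percent, taken by 60S genes with the stalk (purple) and by 40S genes (green) among the 77 canonical ribosomal protein genes, 1 bar per library with counts. Replicates 2 and 3 labelled double knockout are the tallest bars, and replicate 1 stands within the range of the 3 controls.

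Gene by gene, 1 ribosomal protein mRNA rose under the double-knockout label and none fell. Of the 92 genes, 85 passed the filter on low counts, and edgeR's quasi-likelihood test, with Benjamini-Hochberg adjustment over 17755 genes, called 1 of the 85 at an adjusted p under 0.05. The gene is Rpl29. Over all genes tested, 14.9% were called in either direction, 6.26% higher and 8.59% lower, against 1.18% of the ribosomal protein genes. At an unadjusted p under 0.05 there were 14 of the 85, all higher except Rps27l, and 5690 of the 17755. DESeq2 called 4 of them higher (Rpl29, Rpl34, Rplp1 and Rpl7l1), where it called 9.31% of all genes higher, limma-voom called Rpl29, and neither called one lower. Without control replicate 3, the edgeR test called 11 members higher, among them Rpl29, Rpl7l1, Rpl7a, Rpl32, Rpl34, Rplp2 and Rps9, where it called 13% of all genes higher. Without replicate 3 labelled double knockout it called 2, Rpl29 and Rplp1, among 1353 genes called over all. With no filter on low counts it called 7 members higher and 4.56% of all genes.

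The differences among canonical genes were small. The median log2 fold change of the 77 was 0.09, with 52 above 0 and 25 below, beside a median of -0.04 over all genes tested. The SD of their log2 fold changes was 0.29, or 0.20 without Rpl29, beside 0.88 for all genes. A log2 fold change within 0.5 of 0 was found in 73 of the 77 (94.8%) and in 54.8% of all genes tested. The median SE of a canonical gene was 0.16 on the log2 scale, beside 0.29 for all genes, so precision differed too. In 16 of the 77 all 3 libraries labelled double knockout exceeded all 3 controls in CPM, and in 0 they lay below, where 22.5% and 16.3% of all genes tested did so. The share of canonical genes with groups apart in the upward direction was thus near that of all genes.

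**Figure D2:**
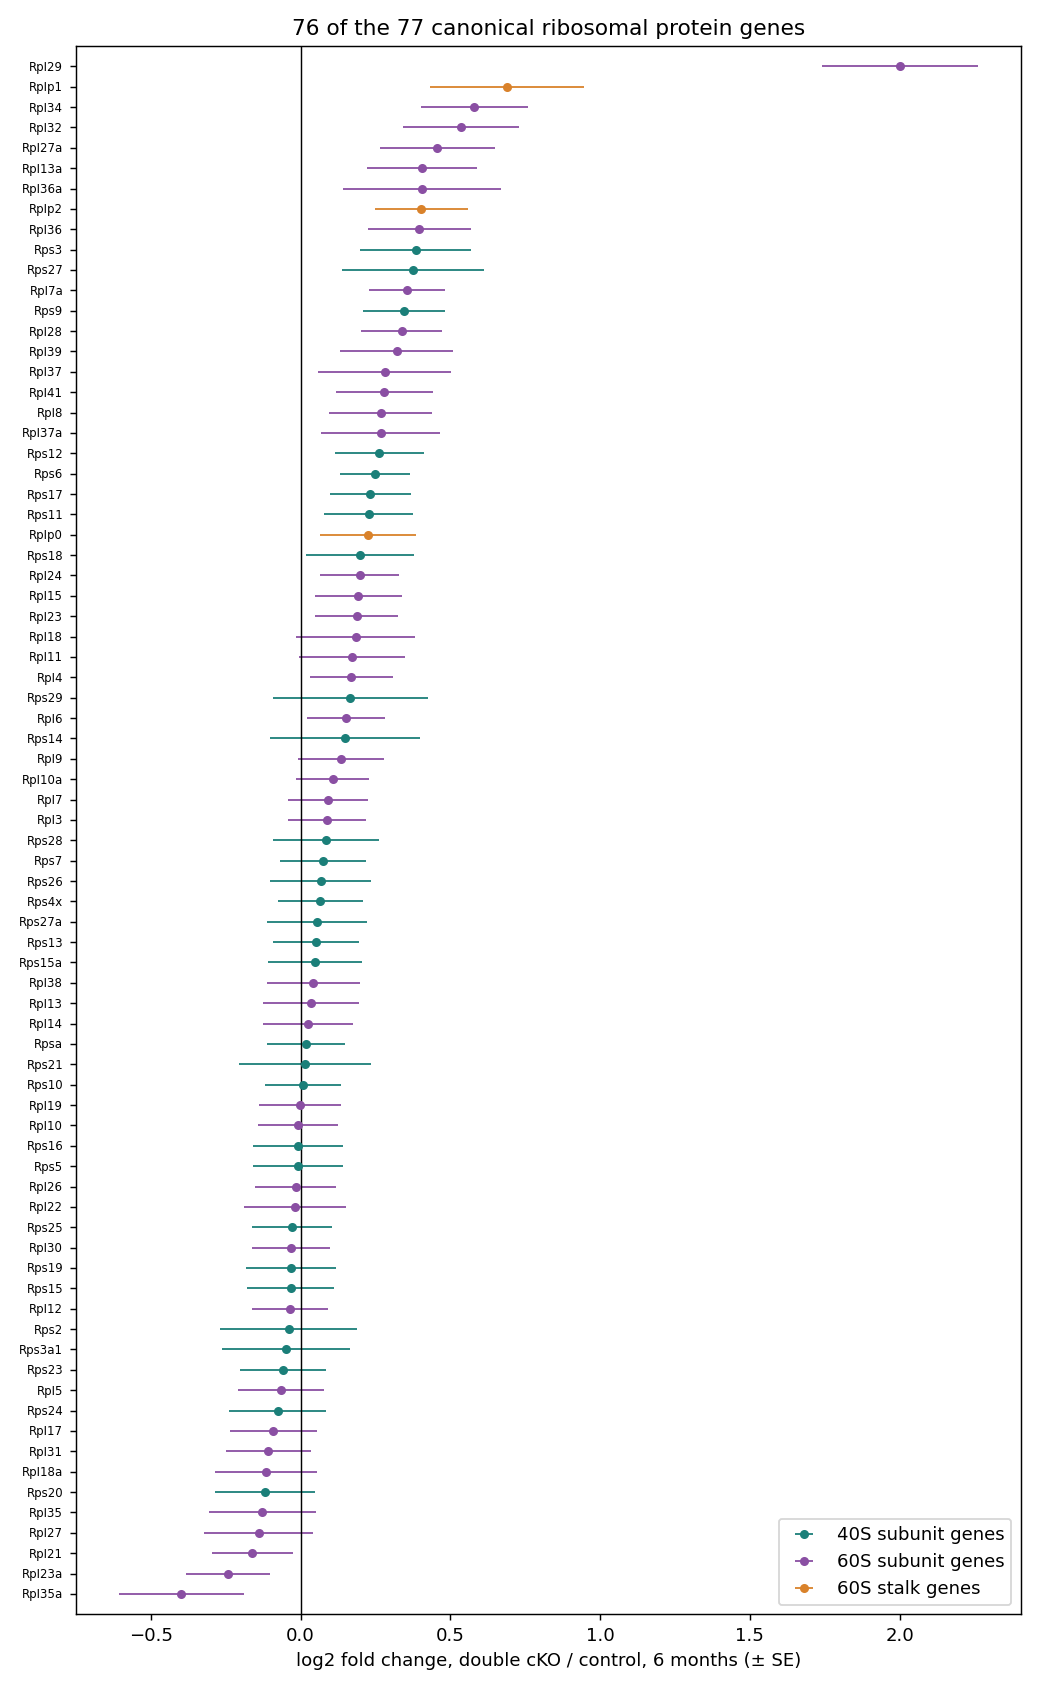
Log2 fold change (x axis, libraries labelled double knockout over controls at 6 months, 3 libraries each) with its SE for 76 of the 77 canonical genes, sorted by value and coloured by subunit. Rpl29 stands at 2.00, apart from the others shown, which lie between -0.40 and 0.69.

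Rpl29 encodes a small, basic 60S protein that also binds heparin and heparan sulfate, and mice without it are viable but small. Its gene (ENSMUSG00000048758) lies at chr9:106429454-106431568 on the plus strand of GRCm38. It had 522, 447 and 734 counts in the controls and 1846, 3969 and 2617 counts under the double-knockout label. In CPM these were 43.4, 39.5 and 47.8, a mean of 43.5 ± 4.15 (SD, n = 3), against 134, 271 and 147, a mean of 184 ± 75.4 (SD, n = 3). Every library labelled double knockout was above every control, and replicate 2 was highest. The ratio of the means was 4.22 and the log2 fold change 2.00 (SE 0.26, adjusted p = 0.00242). The 2 libraries labelled K14CreTfap2bfl/fl at 3 weeks had 95.05 and 129.5 CPM of Rpl29, between the 2 groups of 6-month libraries. Without control replicates 1 and 2, which stood apart in the number of genes with counts, the log2 fold change was 1.89 with an adjusted p of 0.190, from the single control left.

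The Rpl29 signal was set beside its relatives and its surroundings. Uimc1, with which it shared the most windows (242), had a log2 fold change of 0.14 (SE 0.16, adjusted p = 0.582). The pseudogene Rpl29-ps1 had 3 to 13 counts in a library and Rpl29-ps5 had 0 to 2. Of 16 other tested genes within 250 kb of Rpl29, 0 were called higher and 2 lower, Abhd14b at -0.99 (adjusted p = 0.0291) and Pcbp4 at -1.06 (adjusted p = 0.0285). The neighbours' log2 fold changes ran from -1.63 to 0.56 with a median of -0.20.

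**Figure D3:**
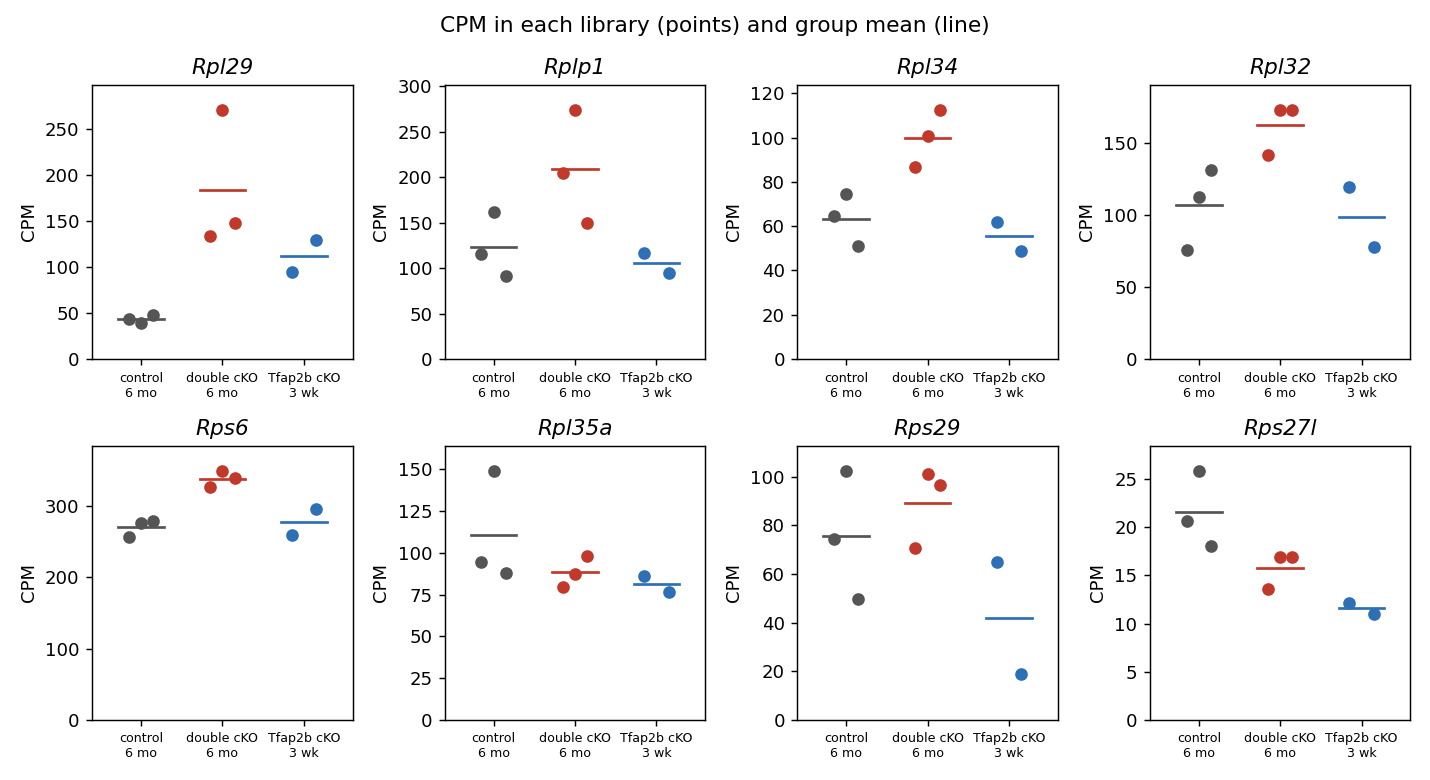
CPM (y axis, linear from 0) of 8 ribosomal protein genes in each library (points) with the group mean (line), for controls at 6 months, libraries labelled double knockout at 6 months and libraries labelled Tfap2b knockout at 3 weeks. In the Rpl29 panel the controls lie between 39.5 and 47.8 CPM, below all other points, and in the Rps27l panel the controls lie highest.

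The other 42 genes of the 60S body had log2 fold changes from -0.40 to 0.58, and none passed the test. Rpl34 gave 64.7, 74.4 and 51.2 CPM in controls and 86.8, 101 and 113 CPM under the double-knockout label. Its groups did not overlap and its log2 fold change was 0.58 (SE 0.18, adjusted p = 0.0543). Rpl32 gave 75.7, 113 and 131 CPM and 142, 173 and 173 CPM, again without overlap, at 0.54 (SE 0.19, adjusted p = 0.0894). Rpl27a gave 57.97, 78.8 and 49.9 CPM and 82.2, 104 and 84.5 CPM, without overlap, at 0.46 (SE 0.19, adjusted p = 0.132). These 3 had the highest log2 fold changes of the 60S body after Rpl29.

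At the other end, Rpl35a, a gene mutated in some families with Diamond-Blackfan anaemia, gave 94.3, 149 and 87.8 CPM in controls and 79.5, 87.4 and 97.8 CPM under the double-knockout label. The groups overlapped, control replicate 2 was highest, and the log2 fold change was -0.40 (SE 0.21, adjusted p = 0.217). Rpl23a, at the exit of the peptide tunnel, gave 266, 208 and 238 CPM and 194, 212 and 228 CPM, at -0.24 (SE 0.14, adjusted p = 0.265). Rpl21, which is mutated in a hereditary loss of hair in humans, gave 313, 357 and 347 CPM and 278, 352 and 327 CPM, at -0.16 (SE 0.14, adjusted p = 0.449). Rpl27 gave 134, 113 and 87.4 CPM and 93.1, 117 and 109 CPM, at -0.14 (SE 0.18, adjusted p = 0.627). All 4 overlapped between the groups.

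The 60S genes with known roles outside the ribosome did not pass the test. Rpl5 gave 275, 304 and 340.4 CPM in controls and 271, 308 and 346 CPM under the double-knockout label, at -0.06 (SE 0.14, adjusted p = 0.786). Rpl11, its partner in binding Mdm2, gave 55.9, 82.5 and 68.4 CPM and 69.96, 88.8 and 86.4 CPM, at 0.17 (SE 0.18, adjusted p = 0.531). Rpl22, which T cells need for their development, gave 75.5, 92.9 and 97.8 CPM and 74.1, 106 and 96.5 CPM, at -0.02 (SE 0.17, adjusted p = 0.954). All 3 pairs of groups overlapped.

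The stalk recruits elongation factors to the ribosome, and its 3 genes all had positive log2 fold changes, with a median of 0.40, none of them past the test. Rplp1 gave 116, 161 and 91.5 CPM in controls and 204, 274 and 149.7 CPM under the double-knockout label, and the groups overlapped. Its log2 fold change was 0.69 (SE 0.26, adjusted p = 0.102). Rplp2 gave 57.9, 82.1 and 73.1 CPM and 94.7, 96.7 and 105 CPM, without overlap, at 0.40 (SE 0.16, adjusted p = 0.107). Rplp0, measured in CPM, gave 699, 536 and 747 and 718, 901 and 822, with overlap, at 0.23 (SE 0.16, adjusted p = 0.361). The 2 libraries labelled Tfap2b knockout had 117 and 94.7 CPM of Rplp1, within the control range at 6 months.

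The 31 genes of the 40S subunit spanned log2 fold changes from -0.12 to 0.38 with a median of 0.06. The edgeR test called 0 of them, 1 (Rps9) had an unadjusted p under 0.05, and DESeq2 and limma-voom called 0. In 4 of the 31 the groups were apart upward and in 0 downward, beside 22.5% and 16.3% of all genes. Rps3, which lies where mRNA enters the ribosome, gave 239.9, 251 and 170.2 CPM in controls and 251, 327 and 333 CPM under the double-knockout label, at 0.38 (SE 0.19, adjusted p = 0.181). Rps27, a zinc-finger protein, gave 83.4, 157 and 158 CPM and 148, 203 and 192 CPM, at 0.38 (SE 0.24, adjusted p = 0.310). In both at least 1 library labelled double knockout lay inside the control range. Rps9 gave 139.8, 168 and 179.8 CPM and 199.95, 225 and 226 CPM without overlap, at 0.35 (SE 0.14, adjusted p = 0.112).

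The lowest 40S values were close to 0. Rps20 gave 106, 118 and 86.9 CPM in controls and 85.7, 105 and 111 CPM under the double-knockout label, at -0.12 (SE 0.17, adjusted p = 0.658). Rps24, whose long tract is printed above, gave 269, 334 and 249 CPM and 241, 306 and 304 CPM, at -0.08 (SE 0.16, adjusted p = 0.775). Rps23, a protein of the decoding centre, gave 76.4, 91.3 and 82.2 CPM and 74.95, 89.3 and 88.4 CPM, at -0.06 (SE 0.14, adjusted p = 0.811). Rps3a1 varied most of these, with 293, 445 and 316 CPM and 374, 267 and 432 CPM, at -0.05 (SE 0.21, adjusted p = 0.896). All 4 overlapped between the groups.

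Rps6, the protein that S6 kinase phosphorylates when mTOR is active, gave 257, 277 and 279 CPM in controls and 326, 350.0 and 340.1 CPM under the double-knockout label. Every library labelled double knockout was higher than every control, but the difference did not pass the test, at 0.25 (SE 0.12, adjusted p = 0.176). Rps19, the gene most often mutated in Diamond-Blackfan anaemia, gave 198, 226 and 175 CPM and 180.2, 228 and 209.5 CPM with overlap, at -0.03 (SE 0.15, adjusted p = 0.902). Rpsa, also known as the laminin receptor precursor, was the steadiest gene among controls, with 579, 568 and 576 CPM, and had 545, 661 and 633 CPM under the double-knockout label, at 0.02 (SE 0.13, adjusted p = 0.937).

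Replicate spread was modest for most members. The median coefficient of variation of CPM over the 77 canonical genes was 12.6% among controls and 11.7% among libraries labelled double knockout. Among controls it ran from 1.00% for Rpsa to 35.9% for Rps14, and among libraries labelled double knockout from 0.538% for Rpl24 to 41.0% for Rpl29. Rps14 had 97.6, 186 and 209.7 CPM in controls, with replicate 1 low, and 165, 201 and 208 CPM under the double-knockout label.

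Of the 8 paralogs, 5 were tested and 0 were called by edgeR, with 3 at an unadjusted p under 0.05 and 1 called by DESeq2 (Rpl7l1). Rps27l, a paralog of Rps27 that p53 can induce, was the one member whose libraries labelled double knockout all lay below the controls, with 20.7, 25.9 and 18.1 CPM against 13.5, 16.9 and 16.96 CPM. Its log2 fold change was -0.52 (SE 0.21, adjusted p = 0.123), and it shared 0 windows with other genes. The 2 libraries labelled Tfap2b knockout had 12.1 and 11.03 CPM of it, lower again. Rpl7l1 gave 15.9, 22.3 and 23.6 CPM and 31.1, 29.9 and 38.1 CPM without overlap, at 0.61 (SE 0.20, adjusted p = 0.0701). Rpl36al gave 18.8, 21.4 and 13.7 CPM and 26.6, 26.2 and 25.7 CPM without overlap, at 0.47 (SE 0.21, adjusted p = 0.150). Rpl22l1, the paralog of Rpl22, gave 15.4, 11.9 and 14.3 CPM and 15.1, 15.9 and 13.4 CPM with overlap, at 0.01 (SE 0.20, adjusted p = 0.969).

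The remaining members were scarce. Rpl3l, a paralog of striated muscle, had 12, 20 and 5 counts in controls and 14, 8 and 10 counts under the double-knockout label, at -0.53 (SE 0.75, adjusted p = 0.606). The protein-coding "-ps" entry Rpl10-ps3 had 18, 8 and 11 counts and 15, 2 and 14 counts, at -0.52 (SE 0.79, adjusted p = 0.627). The entry Rps12-ps3 had 10, 5 and 12 counts and 13, 7 and 11 counts, at -0.08 (SE 0.67, adjusted p = 0.933). At such counts a difference of this size was not detectable. The density of receptor gene counts, scaled to length, came to up to 26.2% of the counts of Rpl3l in a 6-month library. For Rpl10-ps3 and Rps12-ps3 it came to up to 30.6 and 31.5%. Rps19bp1 gave 7.31, 8.66 and 10.2 CPM and 5.94, 5.73 and 7.95 CPM with overlap, at -0.48 (SE 0.27, adjusted p = 0.243). The 7 members that did not pass the filter were Rpl10l, Rpl36-ps4, Rpl36a-ps1, Rpl39l, Rpl9-ps1, Rpl9-ps6 and Rps27rt, each with 0 to 14 counts in a library.

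Relative to the mean of the 3 controls, the median canonical gene stood at 0.00, 0.28 and 0.27 on the log2 scale in replicates 1 to 3 labelled double knockout, and at -0.10, 0.10 and 0.00 in the controls themselves. In CPM, without the scaling used in the test, the upward shift was thus carried by 2 of the 3 libraries labelled double knockout. In the 2 libraries labelled Tfap2b knockout the median stood at 0.02 and -0.22. Rpl29 was the highest canonical gene on this scale in all 5 libraries with a Cre label. Rps29, a zinc-binding 40S protein, was the lowest in the second Tfap2b library, at -2.02. The first and second Tfap2b libraries had 64.8 and 18.7 CPM of it, beside 74.5, 103 and 49.8 CPM in controls and 70.6, 101 and 96.5 CPM under the double-knockout label. Age, genotype and the cell types present cannot be told apart in the Tfap2b libraries, so these values have no test.

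The genes that make and use ribosomes were described in 9 lists from the same test. Rack1 and Fau, ribosomal protein genes outside the symbol rule, were not called by edgeR, DESeq2 or limma-voom, and neither had an unadjusted p under 0.05. Rack1, a scaffold protein on the 40S subunit, gave 509, 535 and 574 CPM and 634, 706 and 727 CPM without overlap, at 0.28 (SE 0.13, adjusted p = 0.159). Without control replicate 3 it was called higher, at 0.41 (SE 0.14, adjusted p = 0.0469). Fau gave 166, 196 and 197 CPM and 172, 201 and 202 CPM with overlap, at -0.04 (SE 0.13, adjusted p = 0.877). The 7 dedicated chaperones and importers of ribosomal proteins had 0 called by any of the 3 tools, 0 at an unadjusted p under 0.05, and a median of 0.24. Without control replicate 3, 1 of the 7 was called higher, beside 13% of all genes.

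Of 59 genes of rRNA processing and ribosome assembly, 5 rose and 0 fell, a share of 8.47% beside 6.26% of all genes called higher, with a median of 0.35. Dkc1, the pseudouridine synthase of small nucleolar RNPs, rose from 10.8, 11.8 and 14.5 CPM to 34.5, 28.4 and 27.6 CPM, at 1.20 (SE 0.19, adjusted p = 0.00502). Its call held with any 1 of the 6 libraries left out. Wdr12, of the PeBoW complex in 60S assembly, rose from 20.8, 17.4 and 13.5 CPM to 35.8, 35.8 and 32.5 CPM, at 0.92 (SE 0.20, adjusted p = 0.0168). Utp20, Noc2l and Mybbp1a rose by 0.78, 0.66 and 0.53, with adjusted p from 0.0121 to 0.0461. With each library left out in turn, Utp20 was called in 5 of 6 fits and Wdr12 in 3. Noc2l and Mybbp1a were called in 1, the fit without control replicate 3. With 1 library left out the list had from 1 call, without replicate 1 labelled double knockout, to 14, without control replicate 3. The former fit called 668 genes over all, against 2637 in the main fit. The latter called 13% of all genes higher. In 35 of the 59, beside 22.5% of all genes, all libraries labelled double knockout lay above all controls. Among 14 genes of RNA polymerase I transcription, 1 rose (7.14%, beside 6.26% of all genes), the catalytic subunit gene Polr1a, from 39.4, 33.04 and 36.9 CPM to 85.96, 79.3 and 73.2 CPM, at 1.05 (SE 0.15, adjusted p = 0.00265). It too was called with any 1 library left out. The list had from 1 to 3 calls, the 3 without control replicate 3, where 13% of all genes were called higher.

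Mitochondrial ribosomal proteins are encoded by separate nuclear genes and offer a second ribosome to set beside the cytosolic one. Of 78, 77 were tested, 6 rose (7.79%, beside 6.26% of all genes called higher) and 0 fell, with a median of 0.27. They are Mrpl34 at 1.31, Mrps2 at 1.18, Mrpl36 at 1.00, Mrpl19 at 0.97, Mrpl1 at 0.80 and Mrps9 at 0.67, with adjusted p from 0.00625 to 0.0440. Mrps2 gave 8.39, 7.07 and 8.27 CPM in controls and 17.8, 19.3 and 20.1 CPM under the double-knockout label, without overlap, and was called with any 1 library left out. With each library left out in turn, Mrpl36 was called in 4 of 6 fits and Mrpl19 in 2. Mrpl34, Mrpl1 and Mrps9 were called in 1, the fit without control replicate 3. The list had 1 call without replicate 1 or without replicate 2 labelled double knockout. Those fits called 668 and 1043 genes over all, against 2637 in the main fit. The list had 13 calls without control replicate 3, where 13% of all genes were called higher. In 37 of the 77 the groups were apart, all upward, beside 22.5% of all genes apart upward and 16.3% downward. The difference between the cytosolic and the mitochondrial set was not tested.

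Of 35 initiation factor genes, 4 rose (Eif4g3 at 0.92, Eif2b3 at 0.88, Eif3i at 0.59 and Eif3d at 0.59) and 1 fell, beside 6.26% of all genes called higher and 8.59% lower. With 1 library left out the list had 1 gene called higher in 5 of the 6 fits. Those 5 fits called 668 to 1381 genes over all, against 2637 in the main fit. Without control replicate 3 the list had 11 genes called higher and 2 lower. That fit called 13% of all genes higher, and 7544 genes over all in either direction. The one that fell in the main fit was Eif1, which keeps start codon choice strict. Eif1 gave 286, 279 and 189 CPM in controls and 152, 175 and 158 CPM under the double-knockout label, at -0.71 (SE 0.18, adjusted p = 0.0271). Of 10 elongation factor and other TOP genes, 1 rose (beside 6.26% of all genes), Eef1g, from 170.2, 215 and 227 CPM to 288, 341 and 335 CPM, at 0.58 (SE 0.15, adjusted p = 0.0291). Eif4g3 was called with any 1 library left out. Eif2b3, Eif3i, Eif3d, Eif1 and Eef1g were each called in 1 of the 6 such fits, the one without control replicate 3. Eef1a1, the carrier of tRNA to the ribosome, stood at 0.09 (SE 0.15, adjusted p = 0.699). Tpt1, another TOP mRNA, stood at 0.07 (SE 0.13, adjusted p = 0.767).

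Of 9 snoRNA host genes, whose spliced RNAs often start with a TOP tract while their introns hold small nucleolar RNAs, 2 rose (beside 6.26% of all genes), Zfas1 at 0.76 (SE 0.19, adjusted p = 0.0272) and Gas5 at 0.64 (SE 0.19, adjusted p = 0.0460). The list had a median of 0.64. With 1 library left out, its calls ranged from 0 without control replicate 2 or replicate 1 labelled double knockout to 4 without control replicate 3. The fits with 0 calls had 1205 and 668 genes called over all, against 2637 in the main fit. Without control replicate 3, 13% of all genes were called higher. Zfas1 was called in 3 of these 6 fits and Gas5 in 2. Of 17 genes of growth control, 2 rose (beside 6.26% of all genes), the S6 kinase gene Rps6kb2 at 0.76 (SE 0.21, adjusted p = 0.0410) and Eif4ebp2, a repressor of cap binding, at 0.61 (SE 0.14, adjusted p = 0.0186). Myc stood at -0.25 (SE 0.31, adjusted p = 0.627), Mtor at 0.27 (SE 0.13, adjusted p = 0.173), Larp1 at 0.25 (SE 0.12, adjusted p = 0.187) and Trp53 at 0.12 (SE 0.14, adjusted p = 0.605), none of them past the test. The upward calls of this list ranged from 0, without control replicate 2 or replicate 1 or 2 labelled double knockout, to 4 without control replicate 3. Its fits with 0 such calls had 668 to 1205 genes called over all. In the fit without control replicate 3, 13% of all genes were called higher. Without control replicate 1, 1 gene of the list was called lower, among 1381 genes called over all. Rps6kb2 was called in 1 of the 6 fits, the one without control replicate 3, and Eif4ebp2 in 3.

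**Figure D4:**
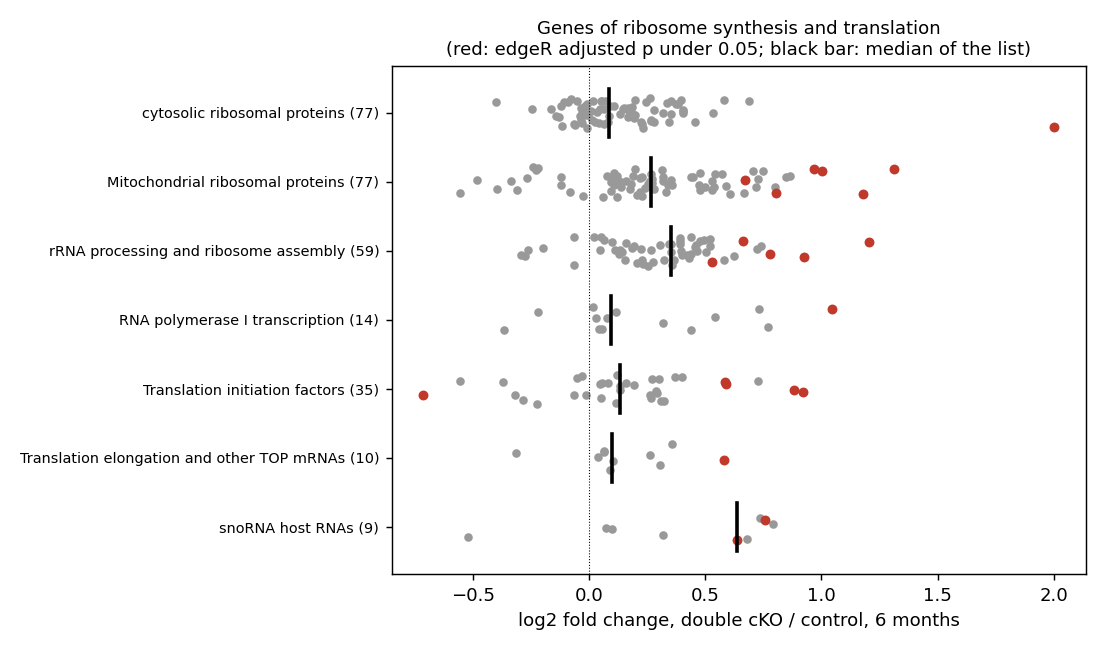
Log2 fold changes (x axis, libraries labelled double knockout over controls at 6 months) of the tested genes in 7 lists, 1 point per gene, with the number of genes in brackets. Red points passed an adjusted p under 0.05, and the black bar is the list's median, 0.09 for the cytosolic and 0.27 for the mitochondrial ribosomal proteins.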

How the data were processed

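Total RNA from epidermal sheets was depleted of ribosomal RNA and sequenced as 150-base read pairs, per the labels' protocols. The deposited files hold raw counts per Ensembl gene made by the authors. The submitters' processing notes name Trimmomatic 0.36, STAR 2.5.2b, featureCounts and Subread 1.5.2, and the builds GRCh38 and GRCm38, with no role or order. The use of strand and of reads with several matches is not given in the sources used here. Of 49315 gene IDs, 49056 (99.5%) were in GENCODE M21 (GRCm38), all on the same chromosome, and 44858 of those (91.4%) had the same start and end.

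Libraries with a total of 0 entered no calculation. Counts of the 3 libraries labelled double knockout and the 3 strain-specific controls at 6 months were filtered with filterByExpr, scaled by TMM and tested in edgeR 4.0.16 (glmQLFit with robust estimation and a prior count of 2, then glmQLFTest, R 4.3.3), and p-values were adjusted by the Benjamini-Hochberg method across the 17755 genes, with a call at an adjusted p under 0.05. The SE is derived from the F statistic of the test and belongs to the log2 fold change before the prior count shrinks it. CPM is the count per 1000000 counts of a library, and CPM per kb divides it by summed exon length. Neither uses the TMM factors, which were 0.967 to 0.986 in controls and 1.01 to 1.04 in libraries labelled double knockout. Comparisons in CPM therefore lie slightly more upward under that label than the log2 fold changes. The common biological coefficient of variation was 0.311. Scripts were tested on simulated data. Alternatives used DESeq2 1.42.0 and limma 3.58.1, other scalings and filters, a replicate block, a length correction and leaving out libraries. The numbers in the titles name no shared animal or day, so the main fit had no replicate block. Correlations of deviations from the group mean were 0.03, -0.16 and -0.06 for same-numbered libraries and -0.11 to 0.17 for the others. With 3 libraries a group, these values cannot show whether libraries shared an animal or day.

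The members, gene lists and tests were chosen with earlier results of these data known. Named genes are the 4 highest and 4 lowest log2 fold changes of each subunit, the stalk genes, Rpsa, all tested paralogs and other symbols of the rule, the 3 highest and 3 lowest levels per length, and Rps6, Rps19, Rpl5, Rpl11 and Rpl22. A gene that the rule names and one of another list are not reported here. From other lists the text gives their called genes and examples. Rps14, Rps29, Rpl24, Uimc1 and the Rpl29 relatives and neighbours were named after their values were seen. At 11318181 to 17746284 counts a library, every canonical gene had at least 118 counts.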

Additional observations from a re-analysis of the deposited data

Results flagged for a closer look

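Rpl29 stood out in libraries that enter no comparison. The 2 libraries labelled K14CreTfap2bfl/fl at 3 weeks had 95.05 and 129.5 CPM of Rpl29, above each of the 3 controls of 6 months (39.5 to 47.8 CPM). No control of 3 weeks was analysed here. The first of these libraries held 1128 CPM of the dermal fibroblast marker Col1a1 and the second 7.67 CPM. Age, genotype and the cell types present therefore cannot be told apart in these values, and the difference was not tested.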

How the results depend on the processing

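With 22 alternatives, 2 of them (subtraction of a background density, and leaving out control replicates 1 and 2 together) chosen after seeing the data, Rpl29 was called in 21, with log2 fold changes from 1.65 to 2.23 and adjusted p from 4.28e-24 to 0.190. The exception was the fit without control replicates 1 and 2, with 0 members called higher and 437 genes called over all, in which the lone control was assumed to vary like the other group. No alternative called a member lower. Beside 1 member called higher and 2637 genes called over all, the counts were 3 members with library totals only, 7 members and 4809 genes with no filter on low counts, 4 members with DESeq2, 2 members with the length correction and 1548 genes when all 8 libraries shared one fit. With the replicate block the counts were 2 members (Rpl29 and Rplp1) and 1729 genes, and with the block and the length correction together 4 members. The share of all genes called higher was 6.26% in the main fit and 4.56% with no filter on low counts. It was 9.31% with DESeq2 and 13% without control replicate 3, and is not given for the other alternatives. Leaving out each library in turn gave 1 to 11 members called higher and 668 to 7544 genes called, the highest of both without control replicate 3. The cause was not tested. The median log2 fold change of the canonical genes ranged from 0.02 to 0.22 and that of all genes from -0.56 to 0.10. The ratio of the summed share was 1.13 and ranged from 1.09 to 1.20 with each library left out. Rpl34 was called in 6 alternatives, Rplp1 in 5 and Rpl7l1 in 4. With 3 libraries a group, Rplp1 at 0.69 and Rpl34 at 0.58 were not called, so differences of that size could be missed.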
